A study of Mus musculus with 8 samples.

Results

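In the liver of 21-month-old mice, 2169 of the 2930 listed Hdac3 sites lay more than 10000 bp from every listed Foxa2 site and overlapped no Hdac3 site of young liver. They are 74.0% of the old Hdac3 list (95% interval 72.4 to 75.6) and 2169 of 28196 sites in all 4 lists of the study. The members were chosen by measured positions alone: the begin and end of sites in the old Hdac3 list, the young Hdac3 list and the Foxa2 lists of both ages. Taken singly, the 2 conditions were met by most of that list, since 94.4% of old Hdac3 sites overlapped no young Hdac3 site and 74.2% lay that far from Foxa2, so nothing is read from the number of members itself. As a set they were narrow sites, spread over all chromosomes that the list covers, and few lay close to each other. Their median q-value, 0.0774, was that of the whole old Hdac3 list, 0.0775, but the lowest q-values of the list were rare among them.

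Hdac3 is an enzyme that removes acetyl groups from histone tails. In hepatocytes, the main cells of the liver, it is part of the NCoR and SMRT corepressor complexes, which nuclear receptors such as Rev-erb alpha bring to DNA, and it is known for keeping genes of lipid synthesis and storage low. Foxa2 is a pioneer factor, a protein that opens compact chromatin so that other factors can bind, and it takes part in the control of liver metabolism.

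Both proteins were mapped by chromatin immunoprecipitation and sequencing in whole liver of wild-type C57BL/6 mice, an inbred strain, aged 3 months (young) or 21 months (old). There were 8 libraries, 2 for each combination of protein and age, and 1 list of sites per combination stood for both of its libraries. Whether the 2 came from separate animals is not stated. Whole liver holds other cell types beside hepatocytes, and the cell type that gave a site cannot be told from these lists. With 1 list per group, no value below has a replicate error and no difference between ages or between sets of sites was tested. Intervals are exact 95% binomial intervals, or for medians their order-statistic counterpart; they cover counting error only, and sites of 1 list share their libraries. Read depth was unknown. Sites are identified by their mm9 positions as deposited, without genes or sequences, since no mm9 annotation or genome was used here.

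Further Hdac3 sites serve as points of reference. The other 761 old Hdac3 sites comprised 283 on a Foxa2 site, 474 that lay 1 to 10000 bp from one, and 4 that lay farther away but overlapped a young Hdac3 site. The mirrored rule, applied to the young Hdac3 list, gave 4382 of 5828 sites, 75.2% (74.1 to 76.3). Both counts follow from the rule and are given as descriptions.

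The sites far from Foxa2 were rare among the best-supported old Hdac3 sites and common elsewhere. Of the 100 old Hdac3 sites with the lowest q-value, 4 belonged to the set (4.0%, interval 1.1 to 9.93). Over the first 500 ranks the share was 65.0%, over ranks 501 to 1000 it was 80.6%, and over the last 430 ranks it was 67.0%. Their q-values ran from 0.0162 to 0.194 with a median of 0.0774 (quartiles 0.0645 and 0.0995). Of the members 1671 had a q of at most 0.1, which is 77.0% (75.2 to 78.8), and 107 had a q of at most 0.05, which is 4.93% (4.06 to 5.93). At q of at most 0.01 there were 0 of 2169, which allows a share of up to 0.17% at the upper bound of the interval. Among the other old sites the shares at these limits were 73.1%, 16.6% and 11.4%. Over all old Hdac3 sites they were 76.0%, 7.95% and 2.97%, with a median q of 0.0775. The young sites found by the mirrored rule had a median q of 0.129, and 20.4% of them reached 0.1 and 0 of 4382 reached 0.05. q-values come from separately made lists, so their levels show no change of binding with age.

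**Figure D1:**
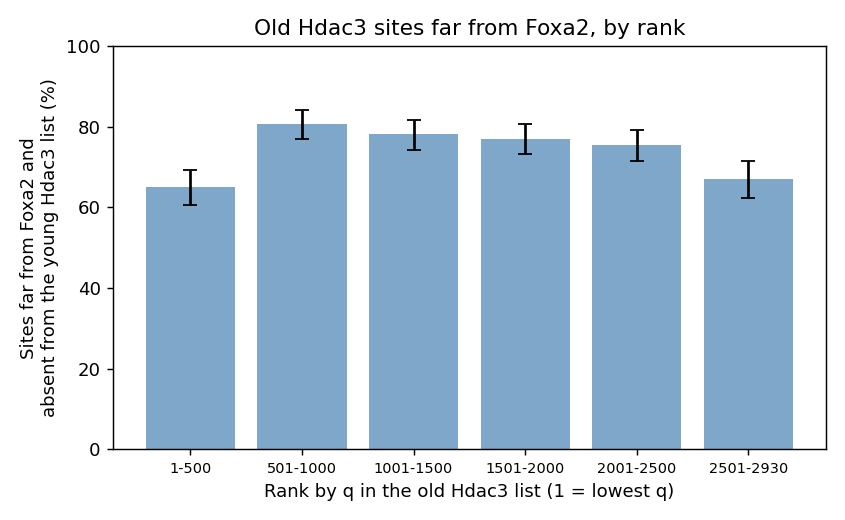
Share of old Hdac3 sites that lay more than 10000 bp from Foxa2 and overlapped no young Hdac3 site, in percent, over bins of 500 ranks by q-value (the last bin holds 430 sites); bars start at 0 and whiskers are exact 95% binomial intervals. The first bin stands at 65.0%, the bin after it at 80.6%, and the last at 67.0%.

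The member with the lowest q stood at rank 91 of the list, on chromosome 1 at 180692818 to 180692918. It was 101 bp wide, with an authors' enrichment of 45.0 and a q of 0.0162. A young Foxa2 site lay 47.9 kb away, an old one 166 kb, and the nearest young Hdac3 site 24.8 kb. Next came sites on chromosome 5 (146490463 to 146490556, q 0.0286, enrichment 14.2), on chromosome 10 (96101797 to 96101845, q 0.0289, enrichment 29.3) and on chromosome 4 (61513640 to 61513719, q 0.0292, enrichment 37.3). These 4 were the members within the first 100 ranks. The site on chromosome 10 lay 15.0 kb from Foxa2 sites of both ages, and that on chromosome 4 lay 11.3 kb from an old and 174 kb from a young Foxa2 site. After them q rose to 0.0446 for a site on chromosome 15 (27950496 to 27950593, enrichment 41.7) and to 0.047 for one on chromosome 6 (55652844 to 55652935, enrichment 27.2). The other 6 of the first 12 members had a q of 0.0474 to 0.0476. Of these, 4 were on chromosome 9, at 8911357 to 8911363, 8985218 to 8985229, 68943102 to 68943126 and 68957914 to 68957959, and all 4 carried the same enrichment of 12.715. The remaining ones were on chromosome 3 at 141249005 to 141249040 and on chromosome 4 at 62805123, a site of a single position.

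Low q-values were gathered on a few chromosomes. Of the 107 members with a q of at most 0.05, 36 were on chromosome 4, 28 on chromosome 9, 20 on chromosome 3 and 18 on chromosome 10. These 4 chromosomes held 102 of the 107 (95.3%, interval 89.4 to 98.5) but 471 of all 2169 members (21.7%). No member on 13 of the 21 chromosomes reached that limit. Among the other old sites, the same 4 chromosomes held 58 of the 126 sites with a q of at most 0.05 (46.0%, interval 37.1 to 55.1) and 22.5% of all sites. These 4 chromosomes were picked after their values were seen. The median q of members differed between autosomes as well, from 0.0553 on chromosome 6 to 0.0987 on chromosome 9. Across these 107, the middle width was 16.0 bp (quartiles 6.5 and 32.0). They had a median enrichment of 15.8 and a median distance of 87576 bp to Foxa2, and 6 of them had a young Hdac3 site within 10000 bp.

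The sites were narrow. Their median width was 20 bp (interval 19.0 to 21.0, quartiles 8.0 and 38.0), and 1412 of them, 65.1% (63.1 to 67.1), were under 30 bp. The other old sites had a median of 46.0 bp (37.0 to 53.0) with 39.8% under 30 bp, and the mirrored young sites a median of 24.0 bp with 58.3% under 30 bp. Of the members 157 measured 1 or 2 bp. Only 2 were 100 bp or wider, against 181 of the 761 other old sites. Wide sites were also few among the mirrored young sites, at 18 of 4382 (0.411%). All members together covered 55.2 kb. The widest, 123 bp on chromosome 1 at 48938362 to 48938484, had an enrichment of 1.88, the lowest of the set, with a q of 0.077. The others among the 4 widest were the leading sites on chromosomes 1 and 15 given above and 1 on chromosome X at 43455465 to 43455563, 99 bp wide with an enrichment of 49.3.

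The enrichment that the authors gave each site, a ratio whose reference is not stated, ranged widely, and among narrow sites it fell into a low and a high group. It is given here as a value of the site and not as an amount of bound Hdac3. The median was 16.5 (interval 16.0 to 17.3) with quartiles of 8.98 and 108, and values ran from 1.88 to 11225.6. Above 50 lay 787 members, 36.3% (34.3 to 38.3), a limit set after the values were seen. Among the other old sites 24.2% (21.2 to 27.4) lay above it, and among the mirrored young sites 37.9% (36.4 to 39.3). These shares depend on width, and the other old sites were wider. Among members the share was 52.2% at 1 to 2 bp and 8.94% at 51 to 200 bp. At widths of up to 20 bp, 522 members lay above 50 and 598 did not. The counts were 108 and 126 for the other old sites, and 923 and 974 for the mirrored young sites. A gap was present among narrow members: of 1120 that measured up to 20 bp, 2 had an enrichment between 20 and 50, the higher of them at 21.3. Wider members filled that range, with an upper quartile of 49.6 at 31 to 50 bp, and over all widths there was no gap. Members above 50 had a median width of 14.0 bp and a median q of 0.0759, and 11.3% (9.18 to 13.7) of them were on chromosome X. Those at or below 50 had a median width of 25 bp and a median q of 0.079, with 2.97% (2.14 to 4.0) on chromosome X.

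**Figure D2:**
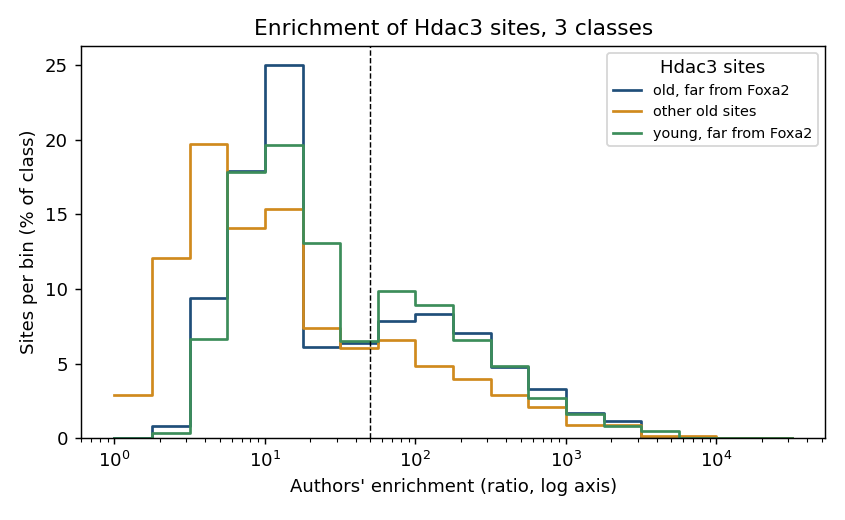
Distribution of the authors' enrichment (a ratio, log axis) for 3 sets of Hdac3 sites, as percent of each set per bin; the dashed line marks 50. All 3 sets have sites on both sides of the line, and 36.3% of the old sites far from Foxa2, 37.9% of the mirrored young sites and 24.2% of the other old sites lie to its right.

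Across all 2169 members width and enrichment were weakly related, with a Spearman's rho of -0.24. Among the narrow members of the high group the enrichment went down as the site got wider, in near inverse proportion. Among members of up to 20 bp with an enrichment above 50 (522 sites), the median enrichment was 1396.6 at 1 to 2 bp, 554 at 3 to 5 bp, 279 at 6 to 10 bp and 144 at 11 to 20 bp. The product of enrichment and width had medians of 2046.1, 2075.9, 2190.4 and 2217.7 over these bins. Spearman's rho between width and enrichment was -0.89 across these 522 sites, which share their libraries and were picked by both quantities. In the low group of the same widths (598 sites) the median enrichment was 14.0, 8.98, 11.2 and 9.64 over the bins and rho was -0.06. The same form was present in the other sets, with rho of -0.91 in the other old and -0.87 in the mirrored young sites of the high group. Among sites of up to 20 bp in the high group, the highest enrichments thus went with the shortest sites. Wider members were left out of this relation, and some of them were high as well. Above 50 lay 107 of the 433 members of 31 to 50 bp and 27 of the 302 of 51 to 200 bp. Examples were 816 at 37 bp on chromosome X and 611 at 46 bp on chromosome 4. The 4 highest values among members were on chromosome X at 23840909 to 23840910 (11225.6), on chromosome 6 at 5939942 (4236.3), on chromosome 3 at 33948918 (3230.2) and on chromosome 14 at 95388292 (3064.7). They were 1 or 2 bp wide and had q-values from 0.0544 to 0.0946.

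**Figure D3:**
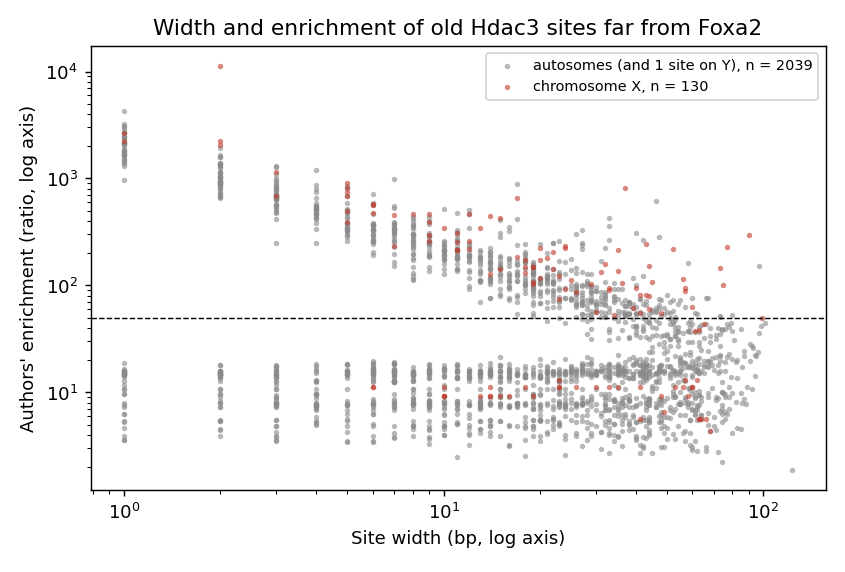
Width in bp and authors' enrichment of each old Hdac3 site far from Foxa2, both on log axes, with the 130 sites of chromosome X in red and the dashed line at an enrichment of 50. Above the line, points of up to 20 bp follow a descending band. Its median falls from 1396.6 at 1 to 2 bp to 144 at 11 to 20 bp. Below the line, points of up to 20 bp lie in level bands. Wider points also fill the range from 20 to 50, so the line marks no gap among them. Members of 31 to 50 bp have an upper quartile of 49.6.

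Enrichments often repeated. Of all members 1189 (54.8%, interval 52.7 to 56.9) had exactly the enrichment of another member on the same chromosome, against 32.1% of the other old sites and 56.1% of the mirrored young sites, shares that also depend on how many sites a set holds. Of these 1189, 1171 were among the 1382 members with an enrichment of at most 50 and 18 among the 787 above it. The commonest value differed between most chromosomes. It was 14.974 on chromosome 1 (31 sites), 15.34 on chromosome 5 (31 sites) and chromosome 3 (26 sites), 10.88 on chromosome 2 (26 sites), 12.715 on chromosome 9 (24 sites) and 15.882 on chromosome 6 (24 sites). Sites with the same value differed in width: the 24 on chromosome 9 measured 1 to 57 bp, with q-values from 0.0474 to 0.0511. Over the chromosomes with 10 or more members, 404 members (18.6%) held the commonest value of their chromosome within 0.002, 175 held 8/7 of it, 47 held 9/7 of it and 197 held 1/2 of it. Ranking these sites by enrichment thus leaves many ties.

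High enrichment values were more frequent among members on chromosome X than on any autosome. The chromosome held 130 members, 5.99% (5.03 to 7.08), and 5.75% of the mirrored young sites. Of its members 89 had an enrichment above 50, which is 68.5% (59.7 to 76.3), while the autosomes ranged from 21.3% on chromosome 17 to 43.1% on chromosome 4. The median enrichment was 110 on chromosome X and 16.0 over the autosomes, at median widths of 22.5 and 19.0 bp and median q-values of 0.0781 and 0.0769. Of the mirrored young sites 62.3% lay above 50 on X and 36.4% on the autosomes. For the other old sites the values were 19.6% (9.36 to 33.9) of 46 sites on X and 24.5% (21.4 to 27.8) on the autosomes. These sites were wider, with median widths of 87.0 bp on X and 41.5 bp on the autosomes. The share above 50 depends on width, so the sets are not alike in this comparison. Members on chromosome X also lay farther from Foxa2, at a median of 384868 bp, against 56568.5 bp (chromosome 7) to 146555 bp (chromosome 14) on the autosomes. That distance also depends on how many Foxa2 sites a chromosome holds, which was not compared here. Chromosome Y held 1 member, at 644439 to 644450, with an enrichment of 506 and a q of 0.0784.

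**Figure D4:**
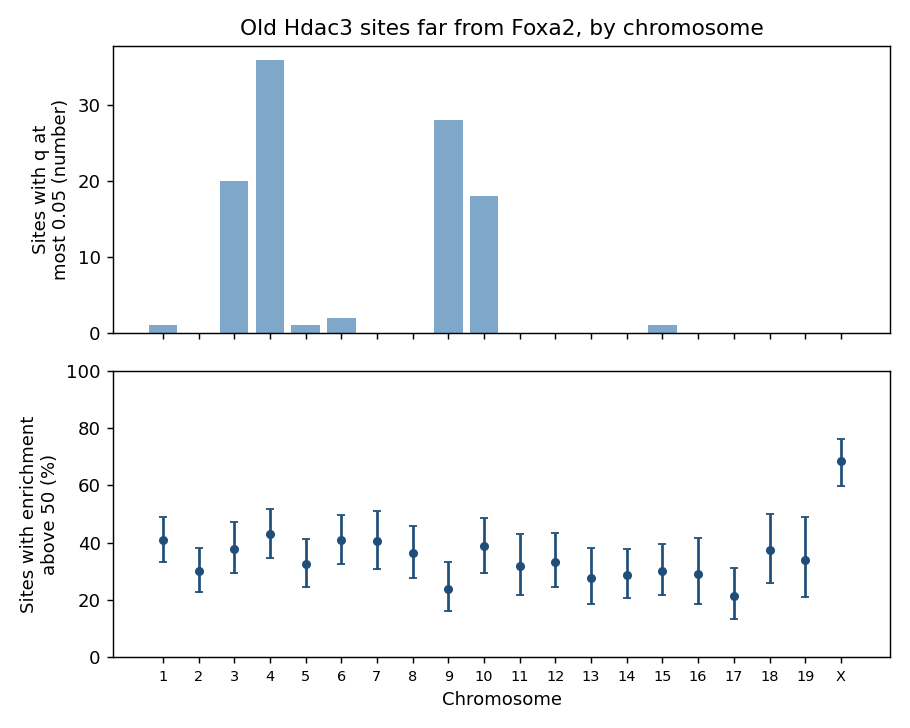
Old Hdac3 sites far from Foxa2 on each chromosome but Y. The upper panel gives the number with a q of at most 0.05, which peaks at 36 on chromosome 4 and 28 on chromosome 9; the lower panel gives the percent with an enrichment above 50 with exact 95% binomial intervals, 68.5% on X and 21.3 to 43.1% on the autosomes.

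The share of the old Hdac3 list that met the rule varied by chromosome. Among autosomes it was lowest on chromosome 1, at 58.9%, where 166 sites met it and 116 did not. The highest was on chromosome 15, at 88.0%, where 110 did and 15 did not. On chromosome X it was 73.9%, and on chromosome Y 1 site met it and 1 did not. Chromosome 1 nevertheless held the most members, 7.65% of the set (6.57 to 8.85), against 15.2% (12.8 to 18) of the other old sites. Of the mirrored young sites it held 8.74% (7.92 to 9.62).

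Most members lay far beyond the limit that defined them. The median distance to the nearest Foxa2 site of either age was 102110 bp (quartiles 40779 and 248560), and 1074 members (49.5%) had one within 100000 bp. The mirrored young sites were much alike, with a median of 88666.5 bp and 53.7% within 100000 bp, so such distances are not particular to the members. The nearest site was in the young Foxa2 list for 726 members, 33.5% (31.5 to 35.5), and in the old list for the others; the young Foxa2 list holds 6604 sites and the old one 12834. The 3 members closest to the limit were the single position on chromosome 4 at 62805123, which lay 10037 bp from an old Foxa2 site, chromosome 1 at 166544338 to 166544388 (10088 bp) and chromosome 5 at 112673980 to 112673985 (10245 bp). Just inside it, and so left out, were sites on chromosome 14 at 68239989 to 68239998 (9976 bp), chromosome 10 at 23521633 to 23521635 (9940 bp) and chromosome 6 at 83772104 to 83772109 (9888 bp). The enrichment of the former ran from 7.67 to 48.5 and of the latter from 5.91 to 18. The farthest members were on chromosome X, at 25847833 to 25847869 (3443.9 kb from Foxa2), 25180456 to 25180512 (2776.5 kb) and 130200371 to 130200430 (2052.1 kb). Distance to Foxa2 showed next to no relation with the other values, with Spearman's rho of 0.04 for enrichment, 0.06 for q and 0.03 for width across the 2169 sites.

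Young Hdac3 sites were seldom close by. A young Hdac3 site lay within 500 bp of 6 members (0.277%), within 10000 bp of 96 (4.43%, interval 3.6 to 5.38) and within 100000 bp of 650 (30%). The median distance was 222979 bp. Over all old Hdac3 sites, overlaps included, these shares were 7.47%, 15.7% and 39.4%. The rule used this distance only at 0, by leaving out overlaps. All 163 old sites that overlapped a young one were therefore among the other 761. Of the 598 other old sites without such an overlap, 200 had a young Hdac3 site within 10000 bp, 33.4% (29.7 to 37.4). These 598 all lay on or within 10000 bp of a Foxa2 site, so this contrast follows the split made by the rule. Of the mirrored young sites, 2.3% had an old Hdac3 site within that distance, in a list with fewer sites to be near to. The 6 members with one within 500 bp were chosen after their values were seen. The closest lay on chromosome 10 at 41208895 to 41208900, with 33 bp to the young site at 41208839 to 41208862, and the old site had an enrichment of 340 with a q of 0.049 and the young one 17.9 with a q of 0.196. The others lay 129 bp (chromosome 3, 75292050 to 75292060), 187 bp (chromosome 18, 42239862 to 42239875), 211 bp (chromosome 4, 72151939 to 72151984), 358 bp (chromosome 2, 122507580 to 122507639) and 455 bp (chromosome X, 40162354 to 40162383) from a young site. In that order, the old and young enrichments were 17.5 and 20.9, 16.0 and 9.31, 611 and 17.6, 3.11 and 3.6, and 57.1 and 1607.7. Neither age was higher throughout. The 4 old sites far from Foxa2 that did overlap a young one, and so are no members, lay on chromosome 16 at 93832374 to 93832470, chromosome 18 at 20724596 to 20724601, chromosome 9 at 10680692 to 10680700 and chromosome 6 at 93728453 to 93728549.

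**Figure D5:**
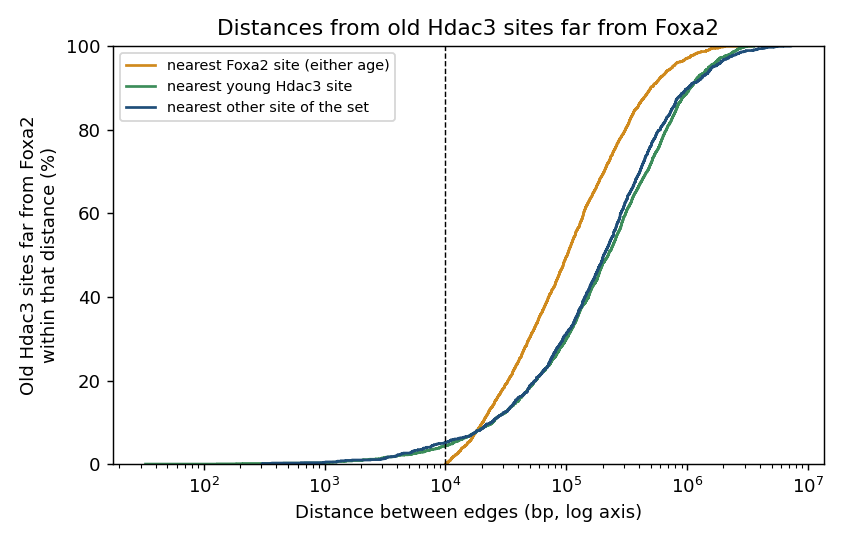
Cumulative percent of old Hdac3 sites far from Foxa2 by distance in bp (log axis) to the nearest Foxa2 site, young Hdac3 site and other site of the set; the dashed line marks the limit of 10000 bp. The Foxa2 curve starts at the limit by construction and reaches 49.5% at 100000 bp, where the young Hdac3 curve stands at 30% and the curve for other sites of the set at 31%.

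Members were mostly solitary. Another member lay within 10000 bp of 112, or 5.16% (4.27 to 6.18), and the median distance to the next was 203559.5 bp. When members with gaps of up to 10000 bp were chained, 56 pairs resulted and no run of more than 2. The mirrored young sites, which are more numerous, had another of their set within 10000 bp in 8.12% (7.33 to 8.97). In 100 kb windows that held 6 or more old Hdac3 sites lay 5 members, 0.231%, against 208 of the other old sites, 27.3%. Over all old Hdac3 sites the share was 7.27%. Of the mirrored young sites, 29 of 4382 (0.662%) lay in such windows of the young list. A low share is thus not particular to the members. The closest pairs spanned 78071716 to 78072065 on chromosome 3 (gap 302 bp), 59994331 to 59994646 on chromosome 8 (gap 308 bp) and 119838008 to 119838438 on chromosome 8 (gap 365 bp).

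On a larger scale, members were counted in windows of 1 Mb. Of these windows 1022 held a member and 147 held 4 or more, with 705 members in the latter (32.5%). The spread over windows was not set beside that of another set of sites, so these counts are not read as crowding. The fullest held 10 each and were chosen after their values were seen: 68 to 69 Mb on chromosome 14, 29 to 30 Mb on chromosome 15, 153 to 154 Mb on chromosome 4 and 110 to 111 Mb on chromosome X. In the window on chromosome 15 the 10 members spanned 29270647 to 29701649, had q-values from 0.0678 to 0.0755 and a median enrichment of 13.0, and the young Hdac3 list had 2 sites there. In the window on chromosome 4 the young Hdac3 list had 0 sites, the young Foxa2 list 6 and the old Foxa2 list 4. In the window on chromosome X neither Foxa2 list had a site and the young Hdac3 list had 2. By contrast, the window from 38 to 39 Mb on chromosome 4 held 8 members and 10 young Hdac3 sites, and neither Foxa2 list had a site there. The window from 80 to 81 Mb on chromosome 12 also held 8 members, with 8 young Hdac3 sites. There the young Foxa2 list had 1 site and the old one 12. Both windows were likewise chosen after their values were seen.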

How the data were processed

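Per the labels, Foxa2 and Hdac3 chromatin immunoprecipitation libraries came from snap-frozen liver, and 1 list is named for both libraries of each protein and age. Per the submitters' processing notes, BWA and mm9 were used; for versions, peak caller, control and thresholds, the sources used here give nothing. Each deposited site has, per the file headers, an enrichment, a ratio or fold made by the authors, and a q-value. What the ratio is relative to is not given, and positions are printed as deposited. Whether they count from 0 or 1 is not stated.

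The end was counted in the site, since 94 old Hdac3 sites begin and end at the same position and would otherwise have no width. Distances run between nearest edges, 0 for an overlap of at least 1 bp. Ranks follow q, then enrichment. Intervals are exact (Clopper-Pearson, 95%). For 2930 old Hdac3 sites, distances to each of the other lists equalled those of bedtools 2.31.1, and distances planted in simulated data were recovered. The other tools were scipy 1.17.1, pandas 2.3.3 and numpy 2.4.6 under Python 3.11.15, with matplotlib 3.10.9 for plots.

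Sites named are the 12 with the lowest q, the 4 widest, the 4 of highest enrichment, 3 on either side of the limit, the 3 farthest from Foxa2 and the 3 closest pairs, plus others said to be chosen later. Members, lists and rules were chosen with earlier results of these data known. Comparisons with genes, transcription starts, markers of cell types and motifs had been laid out but were not run, because no mm9 annotation or genome was used here. Alternatives changed the distance limits, q limits, chromosomes, crowded windows, Foxa2 lists and minimum width.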

Additional observations from a re-analysis of the deposited data

How the results depend on the processing

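No paired analysis was possible because the 2 libraries of a group share 1 list of sites, and for the same reason no replicate could be left out. Over 13 alternatives, 89 of 109 values stayed within the interval of the reported value (counts within 1.5 times). Limiting the set to sites more than 50000 bp from Foxa2 gave an X share of 7.74%, and beyond 100000 bp 1095 sites remained with an X share of 9.5%. With q of at most 0.1 the median width was 18 bp, 68.3% were under 30 bp and the X share was 5.03%. With q of at most 0.05, 107 sites were left, with a median width of 16 bp, a median enrichment of 15.8, 72.9% under 30 bp, 0% on X, 3.74% within 10000 bp of another member and 5.61% within 10000 bp of a young Hdac3 site. With the old Foxa2 list alone, the last of these shares were 6.66% and 5.76%. Leaving out sites under 10 bp, an alternative chosen after seeing the data, gave a median width of 29 bp, a median q of 0.0788, 74% with a q of at most 0.1, 51.3% under 30 bp and 3.35% within 10000 bp of another member. Also chosen after seeing the data, the share with an enrichment above 50, 36.3%, was 34.2% on autosomes and 32.2% at 10 bp or more. It was 38.7% with q of at most 0.1 and 39.3% with q of at most 0.05. With limits of 30 and 100 in place of 50, the shares were 40.8% and 26.4%. Windows of 1 Mb that start 500000 bp later held at most 9 members, against 10. Alternatives that need gene positions, base composition or motifs were not run. Read depths were unknown, so no limit of detection can be given for a young Hdac3 site at these positions.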
